A study of Mus musculus with 15 samples.

Results

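The replication-dependent histone genes are the protein-coding genes whose symbol starts with H2ac, H2bc, H3c or H4c and a number, together with H1f1 to H1f6. They numbered 68 of 21770 protein-coding genes in the GRCm39 annotation (GENCODE M39): 18 H2A, 19 H2B, 12 H3, 13 H4 and 6 linker histone H1 genes. Of these, 54 lay on chromosome 13, 10 on chromosome 3, 3 on chromosome 11 and 1 on chromosome 6. A gene was called marked where a peak of trimethylated lysine 4 on histone H3 (H3K4me3) overlapped the 1000 bp on either side of any of its transcript starts, and a peak shared by several genes was counted once.

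H3K4me3 was mapped by chromatin immunoprecipitation and sequencing (ChIP–seq) in murine mBA cells in 3 conditions, with 4 immunoprecipitated samples and 1 input each. WT cells were wild type and untreated, WT + 2HG cells were wild type and received cell-permeable 2-hydroxyglutarate in DMSO, and CLPP-KO cells lacked the mitochondrial matrix protease CLPP and were untreated. The study's methods do not say whether untreated cells received DMSO. All cells grew in high-glucose DMEM without pyruvate, and the knockout cells alone were given uridine, so genotype and uridine cannot be told apart. The labels call the cells primary, whereas the study's methods describe preadipocytes immortalized with SV40 large T-antigen under the PGK promoter and then differentiated, with octyl d-2HG applied at 500 μM for 72 h. The deposited data were 1 peak list per condition, called over its 4 samples together, so no value has a replicate error and no difference between lists could be tested.

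Replication-dependent histone genes supply the histones that package newly copied DNA, and their transcription is concentrated in S phase. Most lack introns, and their mRNAs end in a short hairpin, bound by the stem-loop binding protein, in place of a poly(A) tail. They lie in clusters of near-identical copies, often as an H2A and an H2B gene read outwards from a shared stretch of promoter DNA, and H3K4me3 is normally found over the start and the first nucleosomes of active genes.

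The hairpin is the feature that the class shares most widely, and 6 of its versions are shown with the paired stem in capitals and the loop in lower case, on the coding strand of GRCm39.
H2ac12 (the version of 40 genes): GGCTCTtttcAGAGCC
H2bc12 (the version of 9 genes): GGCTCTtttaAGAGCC
H4c16 (the version of 8 genes): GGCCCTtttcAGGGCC
H4c9 (a version of 2 genes): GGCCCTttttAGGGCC
H4c2 (a version of 2 genes): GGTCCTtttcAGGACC
H4c1 (a version of 1 gene): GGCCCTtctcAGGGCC
A match to the histone stem-loop pattern of 16 bases was found within 1500 bases of the canonical start in 64 of the 68 genes (94.1%), against 72 of 21757 protein-coding genes on the assembled chromosomes (0.331%). The 64 matches had 8 versions. The 13 H4 genes carried 4 versions that no gene of another class held, and the commonest version stood in 11 genes with a WT peak and 27 with no peak in any list. H2bc21, H2ac22, H1f3 and H2bc6 had no match in this window. The canonical transcript had a single exon in 63 of the 68 genes.

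Promoter sequences are shown for H2A and H2B pairs that were marked (H2bc26 with H2ac25, H2ac11 with H2bc11) and that were not (H2ac8 with H2bc8, H2ac20 with H2bc21), as examples that do not stand for their groups. Each is the whole stretch between the divergent canonical starts on the plus strand of GRCm39, and the capitals mark, on either strand, the letters CCAAT of the CCAAT box, TATAAA of the TATA box, ATTTGCAT of the octamer or AAACACAAA of the H1 box, none of which contains another.
H2bc26 and H2ac25, chr11:58845255-58845510: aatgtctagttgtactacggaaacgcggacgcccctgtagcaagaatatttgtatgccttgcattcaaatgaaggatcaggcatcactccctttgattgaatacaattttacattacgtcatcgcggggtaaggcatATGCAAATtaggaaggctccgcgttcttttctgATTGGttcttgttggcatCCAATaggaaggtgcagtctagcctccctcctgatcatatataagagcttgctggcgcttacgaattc
H2ac11 and H2bc11, chr13:22227115-22227383: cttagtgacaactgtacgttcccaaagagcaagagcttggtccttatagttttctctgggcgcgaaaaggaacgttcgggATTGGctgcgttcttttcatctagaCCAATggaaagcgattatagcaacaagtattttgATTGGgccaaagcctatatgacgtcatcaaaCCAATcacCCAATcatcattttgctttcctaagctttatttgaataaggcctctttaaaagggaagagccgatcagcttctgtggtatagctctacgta
H2ac8 and H2bc8, chr13:23755395-23755569: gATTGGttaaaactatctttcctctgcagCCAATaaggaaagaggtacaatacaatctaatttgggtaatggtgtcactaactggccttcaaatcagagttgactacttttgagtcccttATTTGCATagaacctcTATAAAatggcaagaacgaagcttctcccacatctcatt
H2ac20 and H2bc21, chr3:96128197-96128434: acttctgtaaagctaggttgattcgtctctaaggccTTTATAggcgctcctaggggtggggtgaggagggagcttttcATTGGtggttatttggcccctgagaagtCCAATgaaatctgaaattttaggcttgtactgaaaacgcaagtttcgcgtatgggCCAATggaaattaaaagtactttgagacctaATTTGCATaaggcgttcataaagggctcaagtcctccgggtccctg
The 100 bases before the start are shown in the same way, each 5′ to 3′ on its own strand, for the linker histone genes H1f2, which was marked, and H1f5, which was not.
H1f2, chr13:23922691-23922790, plus strand: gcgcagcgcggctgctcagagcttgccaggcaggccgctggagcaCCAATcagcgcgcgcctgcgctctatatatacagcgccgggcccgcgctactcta
H1f5, chr13:21964796-21964895, minus strand: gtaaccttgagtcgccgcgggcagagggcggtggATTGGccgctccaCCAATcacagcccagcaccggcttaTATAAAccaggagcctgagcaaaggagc
In the 300 bases from 250 before to 50 after the canonical start, CCAAT stood in 56 of the 68 genes (82.4%) and in 39.9% of all protein-coding genes. TATAAA stood in 36 (52.9%, against 13.2%), ATTTGCAT in 15 (22.1%, against 1.63%) and AAACACAAA in 3 (4.41%, against 0.607%). The octamer was found in 7 H2A and 8 H2B genes and in no H1, H3 or H4 gene, while only 4 of the 13 H4 genes held CCAAT. Marked and unmarked genes both held these letters: CCAAT stood in 15 of the 19 genes with a WT peak and in 39 of the 47 with no peak in any list, TATAAA in 8 and 26, and the octamer in 7 and 8. The median ratio of observed to expected CpG was 0.664 in the 19 marked genes and 0.787 in the 47 unmarked ones, beside 0.744 in all coding genes with a WT peak. Both unmarked pairs shown hold TATAAA and the octamer, but the unmarked pairs H2bc13 with H2ac13 and H2bc7 with H2ac7 held neither between their starts. A match to these letters is a description of the sequence and not a binding site.

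The lists held 12342 (WT), 14059 (WT + 2HG) and 15118 (CLPP-KO) peaks, and read depth is unknown because they give no read counts. Of 5 markers of proliferating cells (Mki67, Top2a, Pcna, Mcm2, Ccna2), all had a promoter peak in every list. Of 9 brown adipocyte markers, 3, 4 and 4 had a peak. Prdm16, Pparg and Cebpa were marked in each list and Cidea in the WT + 2HG and CLPP-KO lists, while Ucp1, Ppargc1a, Adipoq, Fabp4 and Plin1 were marked in none. The part of proliferation in the results below was not tested. Clpp itself had 1 promoter peak in each list, which does not check the knockout, since a promoter peak does not report on the deleted part of the gene.

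Most replication-dependent histone genes had no H3K4me3 peak in these cells, and the marked ones stood together. A promoter peak was found at 19 of 68 genes in WT (27.9%), where 50.8% of all protein-coding genes had one. In WT + 2HG 20 genes were marked (29.4%, against 55.9% of coding genes), and in CLPP-KO 20 (29.4%, against 57.6%). The same 19 genes were marked in all 3 lists (27.9%, against 50.2% of coding genes) and 47 in none (69.1%, against 41.2%). The marked genes shared 19, 22 and 21 distinct peaks, of which 12, 13 and 12 lay in the windows of several of them. To compare levels within a list, its peaks were ranked by their area under the significance curve, and the percentile of a gene is that of its strongest promoter peak among all peaks of the list.

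**Figure D1:**
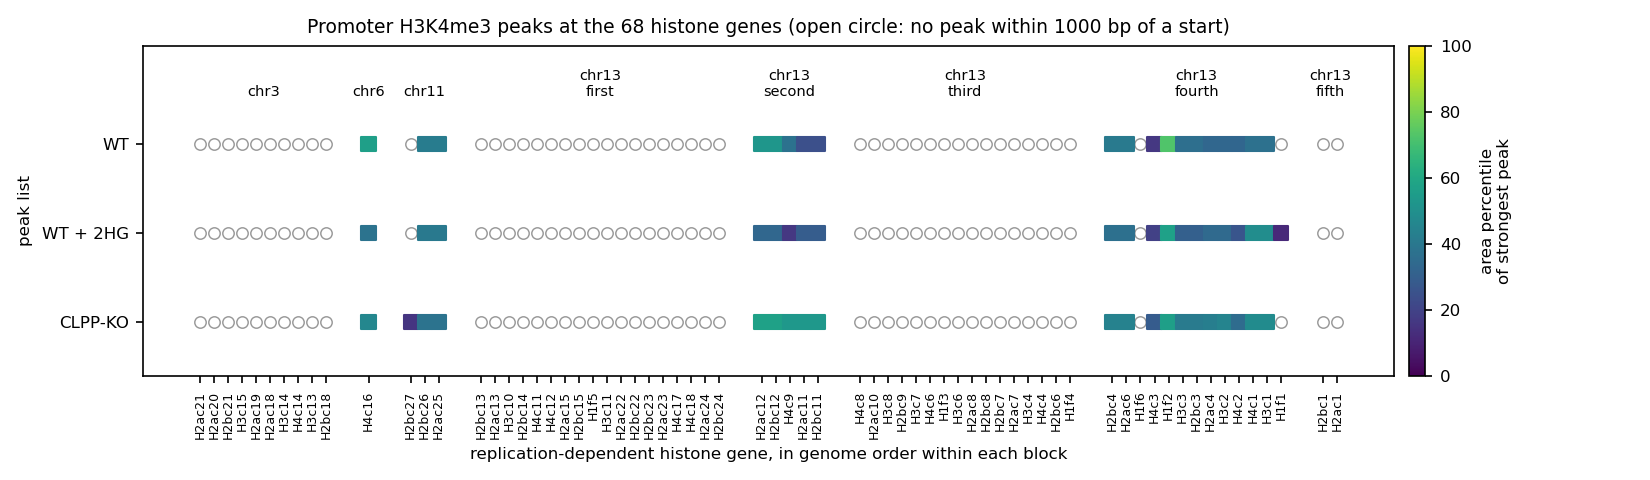
Each column is 1 of the 68 histone genes in genome order within its block (neighbours under 50 kb apart), and each row is a peak list; squares are genes with a promoter peak, coloured by the area percentile of the strongest 1 (0 to 100), and open circles are genes without. The chr3 block and the first, the third and the fifth chr13 block are empty in every list, and the second chr13 block is filled in every list.

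Marked genes lay together by position, and every class held marked and unmarked genes. With neighbours under 50 kb apart joined, the 68 genes formed 8 blocks. The 10 genes of the chromosome 3 block (chr3:96127181-96177448) had no peak in any list, nor had the 18 genes of the first chromosome 13 block (chr13:21899933-22021700) or the 16 genes of the third (chr13:23715220-23806541). The 5 genes of the second chromosome 13 block (chr13:22219334-22227846), H2ac12, H2bc12, H4c9, H2ac11 and H2bc11, were marked in every list. In the fourth block (chr13:23865450-23948389) 11 of 13 genes were marked in WT. It starts not far over 50 kb after the third ends, so a somewhat wider limit would join them, which was not tried. H4c16 on chromosome 6 and 2 of the 3 genes on chromosome 11, H2bc26 and H2ac25, were marked as well. The fifth block holds H2bc1 and H2ac1, the testis-specific H2B and H2A genes, and neither was marked. By class, 5 of 18 H2A, 5 of 19 H2B, 3 of 12 H3, 5 of 13 H4 and 1 of 6 H1 genes had a WT peak.

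The unmarked blocks lay in stretches without any peak, in promoters or elsewhere, in all 3 lists. Around the chromosome 3 block this stretch was 220 kb long (chr3:96088818-96308931) and also held Bola1, a mitochondrial protein gene, and the Fc receptor gene Fcgr1. Around the first chromosome 13 block it was 414 kb long (chr13:21715386-22129146) and held 8 olfactory receptor genes besides the histone genes. The stretch around the third block was 218 kb long (chr13:23649043-23867337), held the butyrophilin genes Btn1a1 and Btn2a2, and ended at the first peak of H2ac6 in the fourth block. By length alone, gaps of this size were not rare: of 15090 gaps between peaks on chromosomes 1 to 19, with a median of 46.6 kb, 84.5%, 91.5% and 84.4% were shorter than these. The stretch around the fifth block was longer, at 516 kb (chr13:23948032-24463958, with 93.1% of gaps shorter), and held 6 other coding genes. Gaps were not compared by the number of genes they hold. H1f6, which encodes the testis-specific linker histone H1t, lay alone among marked neighbours in a peak-free stretch of 13.1 kb.

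Reads from near-identical copies cannot always be placed, so the share of 100-base stretches within 1000 bp of the canonical start that occur again elsewhere in GRCm39 was measured for each gene. This share had a median of 12.7% (0 to 100%) in the 47 genes with no peak and 11.6% (0 to 28.2%) in the 19 genes with a WT peak. The highest values belonged to unmarked genes: H2bc23, H2ac23, H2ac24 and H2bc24, an inverted duplication, were at 100%, and the nearby H4c17 and H4c18 differed at 1 of the 300 promoter bases and were at 84.9% and 80.7%. H2ac12 and H2bc12 were at 28.2% and marked in every list. At the other end, 6 unmarked genes, H1f3, H1f5, H1f6, H2bc6, H4c4 and H4c14, held no repeated stretch, and 20 of the 47 were under 10%. H1f3 and H2bc6 had no hairpin match downstream of their canonical starts, so their windows may not cover the histone-coding part. Among the 30 genes under 10%, 26.7% were marked in WT, close to the 27.9% over all 68. The study's stated peak calling names a set of genome ranges to leave out, which was not used here, and its part in the unmarked blocks was not tested.

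**Figure D2:**
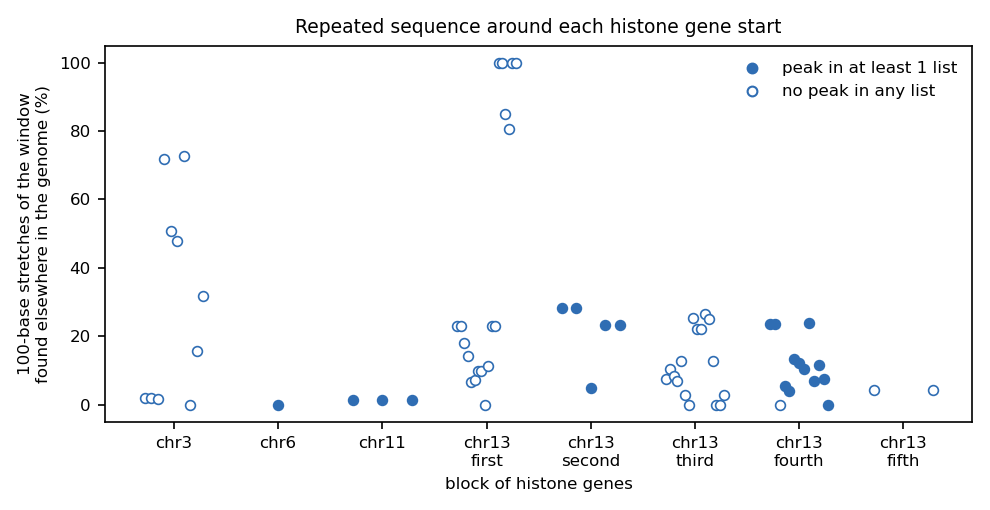
The vertical axis gives, for each histone gene, the percent of 100-base stretches around its start found elsewhere in the genome, and the horizontal axis its block. Filled points (a peak in at least 1 list) reach 28.2%, and open points (no peak) span 0 to 100%.

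H2A and H2B genes encode the dimers at the faces of the nucleosome, and 14 pairs of histone genes on opposite strands had starts under 1000 bp apart. All joined an H2A with an H2B gene except H2bc9 with the H3 gene H3c7. In each list 4 of them had peaks, with 1 summit on either side of the midpoint between the starts. Of the other divergent coding pairs with a peak, 32.4%, 30.3% and 30.3% in the 3 lists had summits on both sides. The gap between the 2 peaks ran from 197 to 362 bp in the WT list, and it was 172 to 262 bp after 2HG and 200 to 276 bp in the knockout.

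At H2ac12 and H2bc12 the left peak, over H2ac12, stood at the 52.6th area percentile in WT, the 33.2nd in WT + 2HG and the 57.0th in CLPP-KO. The right peak, over H2bc12, stood lower in each list, at 22.8, 23.4 and 32.9. At H2bc26 and H2ac25 on chromosome 11 it was the right peak, over H2ac25, that stood higher, at 41.7, 40.5 and 38.1, against 27.1, 16.8 and 25.7 on the left. The H2A side therefore ranked higher at both pairs in every list. At H2ac11 and H2bc11 the order varied: the H2bc11 side was higher in WT (24.3 against 20.0), and the H2ac11 side in WT + 2HG (29 against 19.9) and in CLPP-KO (53.5 against 36.5). In the remaining pair, H2ac6 and H2bc4, the canonical starts overlap, so that both lie at the left peak, and a second annotated start of H2bc4 at chr13:23868183 lies at the edge of the right peak (chr13:23868176-23868820 in WT). H2ac4, without a divergent partner, stood at 33.2, 34.2 and 42.3.

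**Figure D3:**
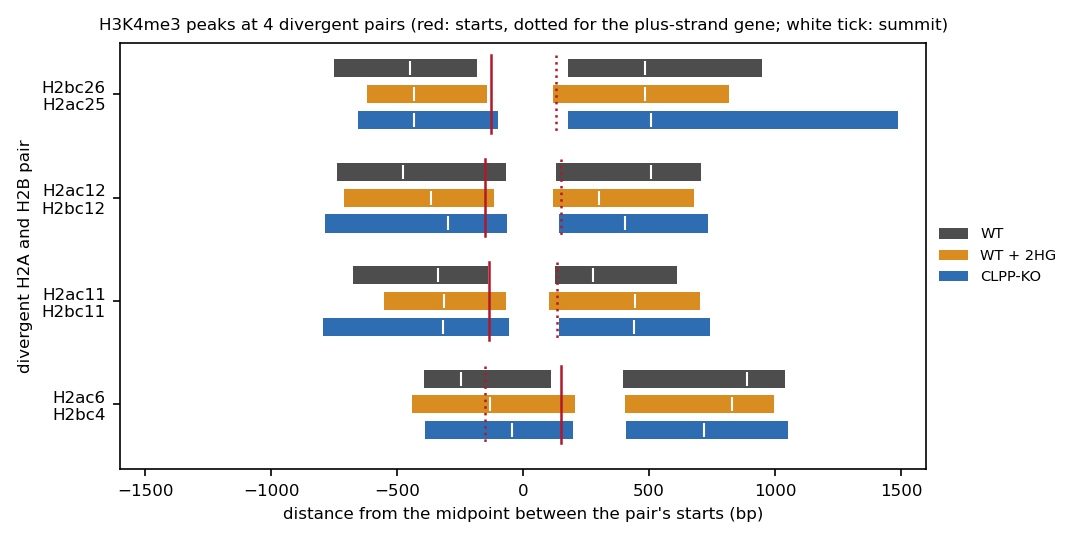
Bars are the peaks of each list around 4 divergent pairs, drawn to scale in bp from the midpoint between the canonical starts (red lines, dotted for the plus-strand gene), with summits as white ticks. The bars leave 172 to 362 bp free between them, at or beside the starts.

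Counted by gene, peak placement differed from that at coding genes in general. The summit of the strongest peak lay downstream of the canonical start in 63.2%, 65% and 65% of the marked histone genes and in 85.1%, 85.4% and 85.9% of all marked coding genes. A start that was itself free of peaks but had them on both sides was found in 7 of 19, 5 of 20 and 5 of 20 histone genes (36.8%, 25% and 25%), against 5.96%, 3.72% and 3.99% of coding genes. Neighbouring histone genes share peaks, so these genes are not separate observations, and no test was made. In WT the strongest peak lay over a neighbouring gene for H2bc26, H2bc12, H2ac11, H2ac6, H2bc3, H3c2 and H4c1. Its summit was upstream of the canonical start of each of these genes. Both measures thus include peaks over neighbours and do not give the placement of each gene's own peak.

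H3 genes encode the histone that carries the mark. H3c3 stood at the 36.0th, 30.2nd and 41.3rd percentile in WT, WT + 2HG and CLPP-KO, H3c2 at 33.2, 34.2 and 45.2, and H3c1 at 37.1, 48.5 and 47.8. These 3 genes in the fourth chromosome 13 block were the only marked H3 genes. The values of H3c3 in WT + 2HG and CLPP-KO belong to a peak upstream of it, and the peak over H3c3 itself stood there at 28.8 and 40.9. The first and second value of H3c2 belong to the peak of H2ac4 upstream, whereas the peak over H3c2 itself stood at 23.7, 30.0 and 45.2. The 9 others, including H3c13, H3c14 and H3c15 on chromosome 3, had no peak.

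H4 genes encode the partner of H3 and in WT held both the highest and the lowest percentile among the marked core histone genes. H4c16, alone on chromosome 6, had a peak of 625 bp at chr6:136780834-136781458 in WT and stood at 55.9, 38.2 and 46.3. H4c3 was the lowest of all marked genes in WT, at 16.2, and stood at 19.5 in WT + 2HG and 28.9 in CLPP-KO. H4c9 ranged widely, at 37.7 in WT, 16 after 2HG and 53.5 in the knockout, but in CLPP-KO the strongest peak in its window was that of H2ac11, and its own peak there (chr13:22224976-22225544) stood at 33.5. H4c2 stood at 32.6, 26.3 and 35.0, and H4c1 shared its strongest peak with H3c1. That peak lies over H3c1, and the peak over H4c1 itself stood at 23.3, 22.2 and 40.8.

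H1 genes encode the linker histones that bind DNA between nucleosomes. H1f2 had the highest percentile of the replication-dependent genes in WT, 72.4, and stood at 56.8 in WT + 2HG and 55.9 in CLPP-KO. Its peak (chr13:23922725-23923719 in WT) had areas of 5037, 6039.8 and 6749 in the 3 lists, which were not scaled to each other. H1f1 was marked in WT + 2HG only, H1f6 in no list, and H1f3, H1f4 and H1f5 lay in unmarked blocks.

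Few histone genes differed in presence between the lists. Of 68 genes, 1 was marked in WT + 2HG and not in WT, where 5.52% of all coding genes were, and 1 in CLPP-KO and not in WT, against 7.1%. None was marked in WT and not in WT + 2HG (0.469% of coding genes) or not in CLPP-KO (0.345%). Both comparisons share the WT list. The first of these genes was H1f1, with a peak of 346 bp (chr13:23947686-23948031), a summit −log10 p of 4.46 and an area percentile of 11.6. The second was H2bc27 on chromosome 11, with a peak of 439 bp (chr11:58839785-58840223), a summit −log10 p of 5.68 and a percentile of 15.4. Both peaks lay low in their own lists, and neither was left once each list was limited to its 12342 largest or most significant peaks. With windows of 2000 bp H1f1 was marked in all 3 lists, through the peak of its neighbour H3c1.

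Within genes marked in every list, 3 further peaks were absent from WT. H2bc3 had a peak just downstream of its canonical start in WT + 2HG (chr13:23930867-23931218, percentile 11.7) and in CLPP-KO (chr13:23930830-23931299, percentile 20.5). In WT its peaks lay upstream of that start (chr13:23928945-23929559 and chr13:23929989-23930491), the first of them over another annotated start of H2bc3 at chr13:23929333, and both also lay in the window of H3c3. A peak of 257 bp upstream of the canonical start of H4c1 was found in WT + 2HG alone (chr13:23945354-23945610, percentile 0.519). It covered another annotated start of H4c1 at chr13:23945513. In all, 3 of the 22 WT + 2HG peaks (13.6%) and 2 of the 21 CLPP-KO peaks (9.52%) overlapped no WT peak, against 14.0% and 17.1% of all coding promoter peaks.

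**Figure D4:**
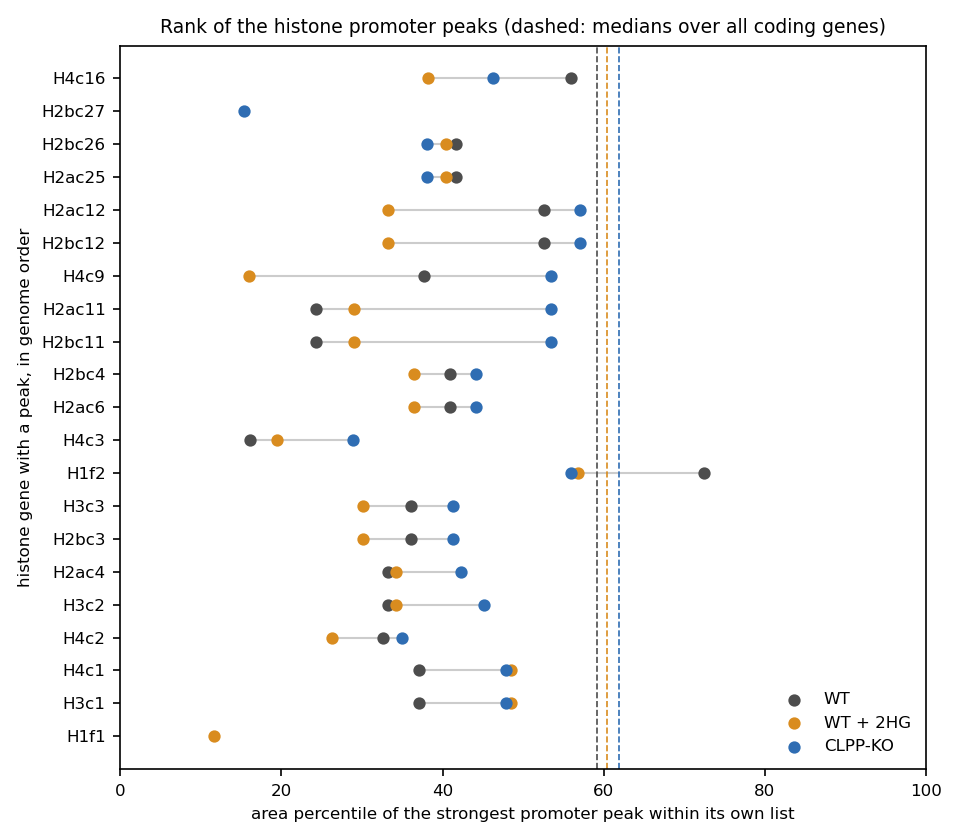
Points give, for each of the 21 histone genes with a peak in at least 1 list, the area percentile of its strongest promoter peak in WT, WT + 2HG and CLPP-KO, and dashed lines the medians over all marked coding genes (59.2, 60.4 and 61.9). Only H1f2 in WT, at 72.4, lies to the right of the lines.

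The marked histone genes ranked low within every list. Their strongest peaks had median percentiles of 37.1, 33.7 and 44.7 (WT, WT + 2HG and CLPP-KO), where all marked coding genes had medians of 59.2, 60.4 and 61.9. Of the 19 genes marked in all lists, 7 stood higher in WT + 2HG than in WT, with a median difference of −4.51 points (−21.7 to 11.4), while over the 10928 such coding genes 64.3% stood higher and the median difference was 3.68. The unscaled area of the strongest peak was nevertheless larger in WT + 2HG than in WT at 15 of the 19 genes (78.9%, against 96.4% of coding genes), and larger in CLPP-KO than in WT at all 19 (98.6% of coding genes). Percentiles are ranks within lists of different length. In CLPP-KO 15 of the 19 stood higher than in WT, with a median difference of 5.26 points (−16.5 to 29.2), beside 69.8% and 5.27 over coding genes. In CLPP-KO 14 of the 19 stood higher than in WT + 2HG, with a median difference over the 19 of 8.70 points, beside 58.3% and 1.29. The peak over H2ac11 stood at 20.0 in WT and 53.5 in CLPP-KO and that over H2bc11 at 24.3 and 36.5, so the strongest peak of this pair was not the same in both lists. These differences come from 3 lists without replicates and several genes share a peak, so they are descriptions. Among the genes with under 10% repeated stretches the medians were 39.7, 38.2 and 38.1. These cover the genes marked in each list, so WT + 2HG adds H1f1 (11.6) and CLPP-KO adds H2bc27 (15.4), both unmarked in WT. They therefore do not compare the same genes between lists.

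Histone promoter peaks were also narrow. The median widths were 578, 575 and 594 bp in the 3 lists, against 848, 933 and 924 bp for all coding promoter peaks. Only 1 was wider than 1000 bp, the CLPP-KO peak over H2ac25 (1311 bp, chr11:58845560-58846870). The peaks of H2bc26 and H2ac25 also lie in the promoter window of the neighbouring gene Trim17. Of coding promoter peaks, 35.7%, 44.6% and 43.5% were wider than 1000 bp. H1f2 had the widest peak in WT, at 995 bp, and in WT + 2HG, at 884 bp.

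**Figure D5:**
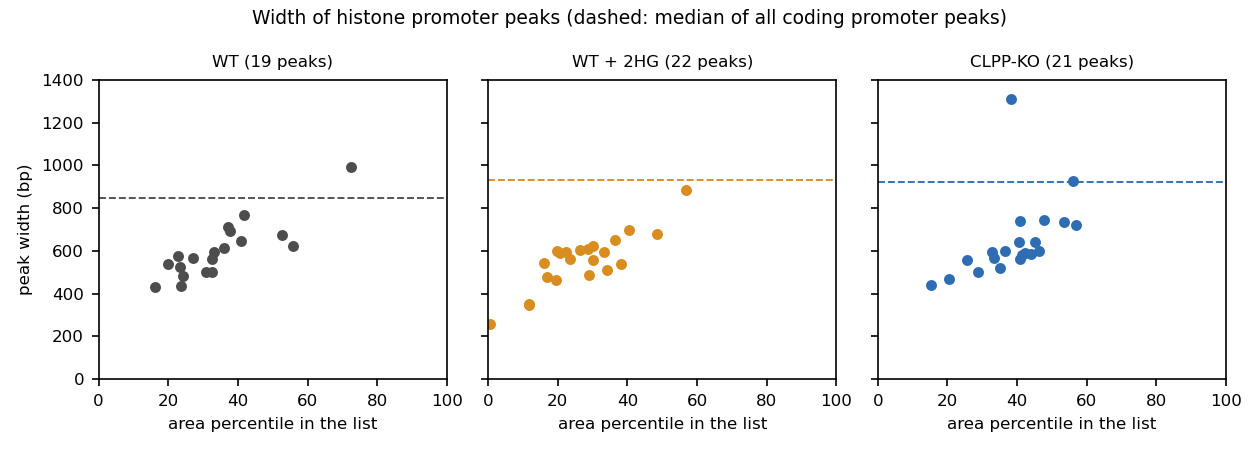
Each point is a distinct histone promoter peak, with its area percentile in the list on the horizontal axis and its width in bp on the vertical axis; dashed lines are the median widths of all coding promoter peaks (848, 933 and 924 bp). In each list at most 2 histone peaks lie above the line.

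The genes that make and handle these histones were marked throughout. All 27 genes of a list covering their transcription, 3′ end processing and chaperones had a promoter peak in every list, as had 50.2% of all coding genes. In WT the 27 ranged from Lsm10, a part of the U7 particle that cuts histone pre-mRNA, at the 9.23rd percentile, to Pou2f1, which encodes the octamer-binding protein OCT1, at 98.4. Npat, the coactivator that gathers at histone clusters, stood at 73.5, 77.8 and 76.9, and Slbp, the stem-loop binding protein, at 48.8, 52.5 and 54.5. Replacement and germline histone genes are not read in S phase alone or are read in germ cells. Of 36 such genes, 10 were marked in every list (27.8%) and 26 in none (72.2%). The replication-dependent genes were close to these shares, at 27.9% and 69.1%, and all coding genes stood at 50.2% and 41.2%. The 10 marked genes of the 36 had a median WT percentile of 89.2, from H2az2 at 36.3 to H2ax at 96.3. Among them H3f3a and H3f3b, both encoding H3.3, stood at 90.6 and 91.2. Most of the 26 unmarked genes were germline H2A genes of the H2al group, but H1f10, a linker histone gene of somatic cells, was also without a peak.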

How the data were processed

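H3K4me3 ChIP–seq was done with an antibody to the mark (Active Motif) on 12 samples, beside 3 inputs. Per the submitters' processing notes the tools were fastp 0.23.4, BWA 0.7.17, deepTools 3.5.4 and Genrich 0.6.1 on build mm39, the UCSC name of GRCm39. Genrich combined the p-values of 4 replicates against 1 input, and the authors deposited 1 list per condition. In each deposited list a peak has a score, which was not used because it is capped, a signal (the area under the significance curve), a summit −log10 p-value and its position. The stated command leaves out chromosomes X, Y and M and certain ranges, yet the lists hold 277, 385 and 440 peaks on X, Y and M, so whether the ranges were left out is not settled. The stated minimum area was 20, whereas the smallest deposited area was 200.02, so weaker regions are not in the lists.

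Peaks were joined to transcript starts of protein-coding genes in GENCODE M39 (Python 3.11.15, pandas 2.3.3, pysam 0.24.0), and no peak ended beyond its chromosome. Area was ranked within each list, since lists were not scaled to each other. Sequences were read from GRCm39. Joins were tested on simulated data. The histone genes and the comparison lists were chosen with earlier results of these data known. Named genes were those whose presence differed between lists, the highest and lowest of each class by WT percentile, those outside the main chromosome 13 cluster, and examples of the rest. Alternatives changed the window, the starts, the peak threshold, the list length and the ranking.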

Additional observations from a re-analysis of the deposited data

How the results depend on the processing

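Counts of marked histone genes moved little under most settings. Over windows of 500 and 2000 bp, coding transcripts only, a summit p of at most 1e-05, lists of equal length by area or by summit p, and summits inside the window, WT had 19 to 20 marked genes, WT + 2HG 18 to 20 and CLPP-KO 19 to 21, and the unmarked blocks held no marked gene under any of these. Counting each peak only for the gene with the nearest start gave 14, 16 and 16.

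Differences against WT did depend on them. The gene gained in WT + 2HG became 0 with windows of 2000 bp, a summit p of at most 1e-05 and both kinds of equal lists, and 2 (H1f1 and H3c1) with the nearest start alone. The gene gained in CLPP-KO became 0 with both kinds of equal lists and 2 (H2bc27 and H3c1) with the nearest start alone. H4c9 was lost in WT + 2HG, 1 gene against 0, at a summit p of at most 1e-05 and in equal lists by summit p. Merging peaks within 1000 bp left 11, 13 and 12 distinct peaks.

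Median percentiles in WT, WT + 2HG and CLPP-KO were 39.0, 35.6 and 50.2 by summit −log10 p, 30.4, 23.3 and 36.8 by width, 33.3, 27.8 and 37.3 among coding promoter peaks, and 39.7, 38.2 and 38.1 in genes with under 10% repeated stretches. In the last of these the CLPP-KO median was not the highest. Each list there covers its own marked genes, with H1f1 only in WT + 2HG and H2bc27 only in CLPP-KO, so the same genes were not compared. The median width in WT + 2HG was 595 bp at a summit p of at most 1e-05.

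No paired analysis was possible because each condition has 1 list pooled over its replicates, and for the same reason no replicate was left out. The lists show presence of a called peak, not transcription. An absent peak means only that none was called, and the depth behind it is unknown.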
